A study of Oryza sativa with 4 samples.

Results

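The genes described here belong to gibberellin synthesis and gibberellin signalling in rice (Oryza sativa): GID1, GID2, SLR1, GA20OX1, GA20OX2, GA3OX2, GA2OX1, GA2OX3, KO2 and KAO. Members were chosen by name, with no measured value in the rule. A probe set is a group of short probes that reads 1 transcript or, for some sets, several. A gene was taken when the platform annotation gave it a probe set and its symbol or a synonym in the gene table equalled one of these 10 names. This gave 6 genes with 8 probe sets, of 17905 genes named on the array, and the other 4 names (GA20OX1, GA3OX2, GA2OX1 and GA2OX3) were not analysed here. RNA came from leaves of 3-week-old plants grown without stress, at 28 °C in 14 h of light and 26 °C in 10 h of dark. The 2 groups were wild type (WT) and OsBIERF3-OE, plants that overexpress the ethylene-responsive-factor gene OsBIERF3, with 2 biological replicates each and 1 Affymetrix array per replicate. The cultivar, the promoter of the transgene and the number of transgenic lines are not given in the sources used here, and because no probe set was matched to OsBIERF3, its overexpression was not checked.

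Gibberellins are diterpene hormones that promote stem and leaf elongation. The plastid cyclases CPS1 and KS1 make ent-kaurene, the cytochrome P450 enzymes KO2 and KAO oxidize it stepwise to the first gibberellin, and soluble dioxygenases (the GA20OX and GA3OX families) turn that into the active hormone, which the GA2OX family and the P450 enzyme EUI1 inactivate. The active hormone binds the soluble receptor GID1, the complex captures the DELLA protein SLR1, a nuclear repressor of growth, and the F-box protein GID2 directs SLR1 to degradation. In rice, active hormone lowers the transcripts of several of its own synthesis genes, and loss of GA20OX2 underlies the semi-dwarf sd1 cultivars.

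The median signal lay between 19.6 and 20.3 on the 4 arrays. Each array carried 33 control probe sets for transcripts that rice lacks, and the brightest of them, here called the background level, lay between 25.1 and 28.0. The leaf label was borne out by photosynthetic genes: all 7 measured ones were above background on every array, with RBCS, the small subunit of Rubisco, between 17364 and 18252, and of these 7 genes 3 were lower in OsBIERF3-OE and 0 higher. These counts take the brightest probe set of each gene. That of RBCS did not pass (log2 change 0.06), but dimmer RBCS sets above background fell (-1.12 and -0.65, limma adjusted p = 0.00851 and 0.0218). Of 7 shoot meristem markers 5, the KNOX genes OSH1, OSH6, OSH43 and OSH71 among them, were not above background on any array. The list's summed signal was 2061 to 2260 in WT and 943 to 1279 in OsBIERF3-OE: LOG, which encodes an enzyme that activates cytokinin, fell 2.26-fold (limma adjusted p = 0.0149), and the receptor kinase gene FON1, with means of 321 and 247, did not pass (0.126). The groups differed strongly in markers of dividing cells, of which 9 of 10 were higher in OsBIERF3-OE and the other was too dim to be tested; their summed signal was 421 to 430.5 in WT and 5883 to 6031 in OsBIERF3-OE. Of 4 root, 8 seed and 9 flower markers, 3, 5 and 5 were not above background on any array. Among the others, the seed storage protein genes GLUA2 and GLB1 were lower (log2 changes -0.97 and -0.50, limma adjusted p = 0.00645 and 0.0244), though a dimmer GLUA2 set did not pass (-0.12, 0.616). The YABBY gene DL, active in carpel and leaf midrib, was higher (0.83, 0.0202). The flower genes MADS58 (-1.60, 0.0532) and MADS1 (-1.13, 0.125) and the root gene LSI1 (-0.90, 0.0849) were lower without overlap but did not pass. MADS16 (0.06, 0.885) and the seed gene SBE1 (-0.07, 0.667) did not pass either. The summed signal of the root markers was 273 to 323 in WT and 139 to 227 in OsBIERF3-OE. Most of it was LSI1, with 235 to 283 in WT and 103 to 185 in OsBIERF3-OE. The summed signal of the seed markers was 3204 to 3280 and 2428 to 2469.6, nearly all from GLB1, SBE1 and GLUA2. That of the flower markers was 264 to 274 and 231 to 241. The root and seed sums therefore reflect a few genes and do not show a fall of the whole lists. RNA integrity can be read from housekeeping genes probed at either end. For 3 of 3 actin pairs and 1 of 2 GAPDH pairs the 3′/5′ ratio was lower in OsBIERF3-OE than in WT without overlap, by 0.55 to 0.85 on the log2 scale. The actin pairs are not all independent, as some share a 5′ probe set. Their ratios were 7.94 to 39.9 in WT and 4.81 to 29.1 in OsBIERF3-OE. Those of the GAPDH pair were 12.8 and 11.2 in WT and 7.37 and 7.25 in OsBIERF3-OE, so the 3′ end was brighter on every array. The ubiquitin ratio was lower without overlap by 0.27, and those of cyclophilin (0.04), ef1a (0.11) and the other GAPDH pair (-0.14) overlapped. For ef1a and that GAPDH pair, however, the ends were not both above background on every array, so these ratios say little. Of the pairs with both ends above background, only cyclophilin overlapped. In bulk leaf RNA, fewer cells of a type and less RNA per cell cannot be told apart, and the part of dividing cells, of other cell types or of RNA integrity in the changes below was not tested.

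Of the 7 member probe sets bright enough to be tested, 2 were lower in OsBIERF3-OE, 0 were higher and 5 did not pass (limma, adjusted p under 0.05 over all 34355 probe sets tested). The 2 that fell read the receptor gene GID1 and the kaurene oxidase gene KO2, by 1.76-fold and 1.6-fold. Transcripts of SLR1, of the GID2 locus, of GA20OX2 and of KAO did not pass, and 0 members were higher at an unadjusted p under 0.05 either. Across the array 24.2% of probe sets passed, 12.4% higher and 11.8% lower. Of the 7 member probe sets, 4 had both OsBIERF3-OE values under both WT values, where 36.2% of all probe sets tested did and 66% were apart in either direction. At the level of genes, with the brightest probe set of each, 2 of 6 members fell, beside 31.8% of 15981 genes called in either direction, 14.5% called lower and 17.2% called higher. With so few members, these counts do not set them apart from the array as a whole. The median log2 change of the 6 genes was -0.11, against -0.04 over all genes tested.

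**Figure D1:**
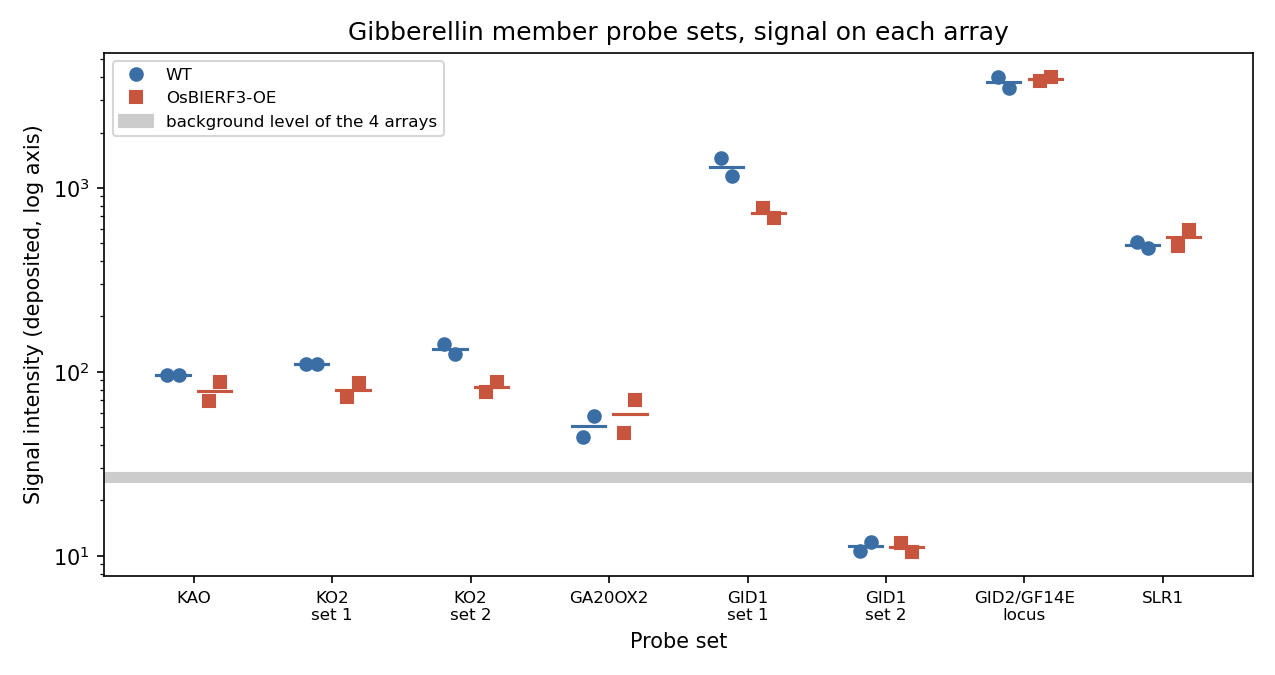
Deposited signal (log axis) of the 8 member probe sets on each array, with WT as circles and OsBIERF3-OE as squares; the short lines are group means (n = 2) and the grey band spans the background levels of the 4 arrays, 25.1 to 28.0. The WT and OsBIERF3-OE points are apart for KAO, both KO2 sets and GID1 set 1, and overlap for GA20OX2, the GID2/GF14E locus and SLR1; GID1 set 2 lies below the band.

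In the early steps of synthesis, KO2 (LOC4341347), also known as D35, encodes the ent-kaurene oxidase of the gibberellin pathway. Its brighter probe set (set 2) read 141 in WT replicate 1, 125 in WT replicate 2, 78.1 in OsBIERF3-OE replicate 1 and 88.0 in OsBIERF3-OE replicate 2; values below keep this order. Both OsBIERF3-OE values lay under both WT values, and the log2 change was -0.68 ± 0.15 (SE; limma adjusted p = 0.031). The dimmer probe set (set 1) read 110 and 111 in WT and 73.4 and 86.9 in OsBIERF3-OE. Its groups were also apart, but its log2 change of -0.47 did not pass (adjusted p = 0.0827), so the probe sets of this gene share the direction and differ in the call. The gene table joins KO1 and KO2 names under this locus, and the suffix of both probe sets marks probes that may also bind related genes, so neighbouring kaurene oxidase-like genes may add to the signal. The call of the brighter set was lost whichever array was left out, with adjusted p between 0.0748 and 0.127.

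KAO (LOC4339885), the kaurenoic acid oxidase gene, read 96.05 on both WT arrays and 69.5 and 88.3 on the OsBIERF3-OE arrays. The OsBIERF3-OE values were the lower ones, but they were far apart from each other, and the log2 change of -0.29 (95% interval -0.73 to 0.14) did not pass (limma adjusted p = 0.268). Of the genes that act before KO2, CPS1 (LOC4329013) read 317 and 372 in WT and 308 and 299.8 in OsBIERF3-OE, with a log2 change of -0.18 that did not pass (adjusted p = 0.39). KS1 (LOC4336960), the ent-kaurene synthase gene, read 729 and 703 in WT and 484 and 453 in OsBIERF3-OE. The KS1 groups were clearly apart, and KS1 fell 1.53-fold (log2 change -0.61 ± 0.11, SE; adjusted p = 0.0186), read by a probe set whose suffix marks it as possibly shared between genes. Its adjusted p rose to between 0.0791 and 0.0861 without WT replicate 1, WT replicate 2 or OsBIERF3-OE replicate 2, and scaling on hybridization controls gave a log2 change of -0.33 that did not pass (adjusted p = 0.0909).

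The kaurene oxidase-like gene LOC4341343, listed as KO1 and as KOL4 (CYP701A8), is known in rice for oxidizing diterpenes of phytoalexin synthesis rather than for gibberellin. It read 90.7 and 130 in WT and 61.4 and 34.2 in OsBIERF3-OE, with a log2 change of -1.25 at the edge of the threshold (limma adjusted p = 0.0502). It passed when only the brightest 40% were tested (limma adjusted p = 0.0493) and with quantile normalization (0.048). It also passed with signals raised to background (0.0324) and with 16 added to signals (0.0463), but not in the other settings with all arrays. With 1 array left out the log2 change ran from -1.67 without OsBIERF3-OE replicate 1, which passed (adjusted p = 0.024), to -0.82 without OsBIERF3-OE replicate 2, which did not (0.128). KO5 (LOC4341340), also called KOL5, was not above background on any array. Of 6 early synthesis genes with a probe set, 5 were tested; 2 fell (KO2 and KS1), 0 rose and 3 did not pass. Of all genes tested, 14.5% were called lower. All 5 had negative log2 changes with non-overlapping groups, with a median of -0.61, where 39.4% of all genes tested were lower without overlap and 73.8% were apart in either direction. The 95% intervals of CPS1 (-0.51 to 0.16) and KAO crossed 0, however. With scaling on hybridization controls CPS1 turned to 0.11 and KAO to -0.007, while the other genes stayed negative. With so few genes, these counts do not set early synthesis apart from the array as a whole. Without LOC4341343, a count added after seeing the data, 2 of 4 fell, 0 rose and 2 did not pass, and the median was -0.45.

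In the late steps, GA20OX2 (LOC4325003), the semi-dwarf gene sd1, read 44.5 and 57.3 in WT and 46.7 and 70.5 in OsBIERF3-OE. The groups overlapped, and the log2 change was 0.19 with a 95% interval of -0.46 to 0.83 (limma adjusted p = 0.644), so neither a fall nor a rise could be resolved. The related oxidase gene GA20OX3 (LOC4342505) read 76.8 and 42.3 in WT and 31.0 and 22.2 in OsBIERF3-OE, where the array with 22.2 was not above background. Its log2 change of -1.12 (95% interval -1.96 to -0.27) did not pass (limma adjusted p = 0.0656). It passed with signals raised to background (-0.99, limma adjusted p = 0.039) and with a replicate block (0.0234), but not in the other settings with all arrays. With 1 array left out the log2 change of GA20OX3 ran from -1.55 without WT replicate 2 to -0.69 without WT replicate 1. The transcript of EUI1 (LOC4339131), the P450 enzyme that inactivates gibberellin, lay between 20.0 and 26.0 and was not above background on any array, so no fold is given.

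Among the perception genes, GID1 (LOC4338764) encodes the gibberellin receptor. Its brighter probe set (set 1) read 1450.3 and 1155 in WT and 780.5 and 689.6 in OsBIERF3-OE. Both OsBIERF3-OE values were well under the lower WT value, with means of 735 ± 64.3 against 1302 ± 209 (SD, n = 2 each). The log2 change was -0.82 ± 0.15 (SE), a 1.76-fold fall (limma adjusted p = 0.0201), and 7.12% of all probe sets tested had a fall at least as large. The other GID1 probe set (set 2) read 10.4 to 11.9 on all arrays, below background, and did not enter the test. The fall of the brighter set did not pass without WT replicate 1 (log2 change -0.65, adjusted p = 0.0724) or without OsBIERF3-OE replicate 2 (-0.73, adjusted p = 0.0755). With the arrays scaled on spiked hybridization controls, which moved the median of all probe sets tested from -0.04 to 0.25, the log2 change of GID1 was -0.53 (adjusted p = 0.064) and that of the brighter KO2 set -0.39 (adjusted p = 0.131), neither of which passed.

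The probe set matched through the name GID2 belongs to LOC4329775, which the gene table lists as both GF14E, a phosphopeptide-binding adaptor protein gene, and GID2. A separate gene named GID2 (LOC112937812) lies wholly within this locus and has no probe set of its own, so the signal cannot be assigned to the F-box gene alone. It read 4012 and 3481 in WT and 3805 and 4023 in OsBIERF3-OE. The groups overlapped, and the log2 change was 0.07 with a 95% interval of -0.21 to 0.34 (limma adjusted p = 0.704). D1 (LOC4338448), the G protein alpha subunit gene whose loss dwarfs rice and weakens its gibberellin response, read 719 and 729.5 in WT and 665 and 699 in OsBIERF3-OE, a log2 change of -0.09 that did not pass (adjusted p = 0.595).

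SLR1 (LOC4333860), the single DELLA repressor gene of rice, read 511 and 469 in WT and 482 and 594 in OsBIERF3-OE. The groups overlapped, and the log2 change of 0.13 had a 95% interval of -0.24 to 0.50 (limma adjusted p = 0.573). SLR1 is controlled largely by protein degradation, which arrays do not measure. SLRL1 (LOC4325922), a related repressor gene that lacks the DELLA motif, read 50.7 and 47.2 in WT and 69.3 and 60.6 in OsBIERF3-OE. Its OsBIERF3-OE values were the higher ones, with a log2 change of 0.41 that did not pass (adjusted p = 0.115) but did with the arrays scaled on hybridization controls (0.69, adjusted p = 0.0284). SPY (LOC4346315), a glycosyltransferase gene that restrains the gibberellin response, had a log2 change of 0.07, and EL1 (LOC4334396), a casein kinase gene whose product phosphorylates SLR1, one of -0.27; neither passed (adjusted p = 0.694 and 0.164). Of these 4 repressor genes 0 passed limma's adjusted threshold and 1, SLRL1, had an unadjusted p under 0.05.

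**Figure D2:**
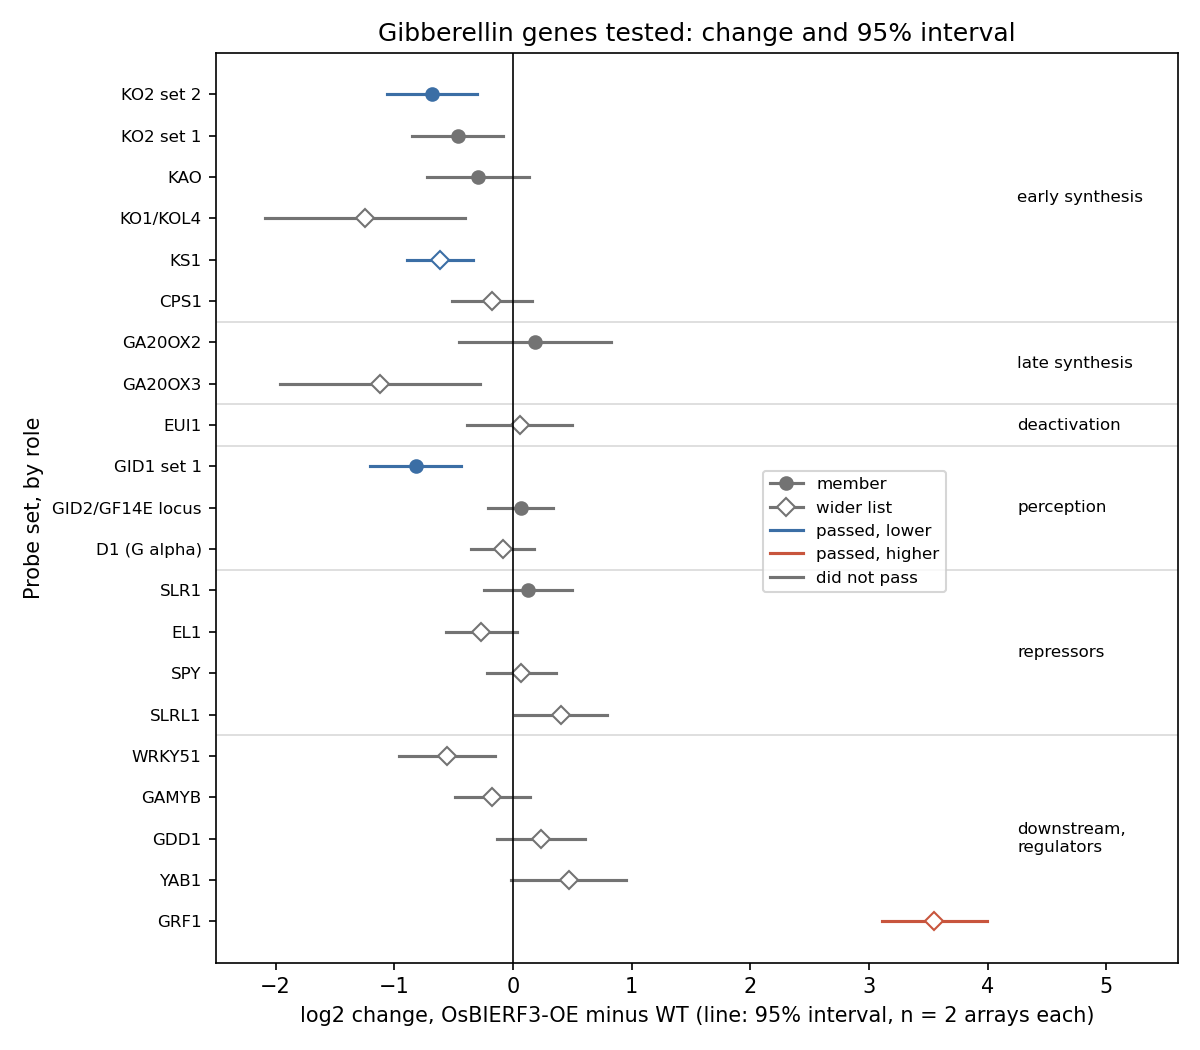
Log2 change, OsBIERF3-OE minus WT, of each gibberellin probe set tested, by role, with its 95% interval (n = 2 arrays per genotype); filled circles are members and open diamonds genes of the wider list, blue and red mark those that passed lower and higher. GID1 set 1 at -0.82, KO2 set 2 at -0.68 and KS1 at -0.61 passed lower, GRF1 passed higher, and the intervals of GA20OX2, the GID2/GF14E locus, KAO and SLR1 cross 0.

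Downstream genes and regulators were taken from a wider list of names. GRF1 (LOC4330903), a growth-regulating factor gene first described as gibberellin-induced in rice internodes, read 19.6 and 18.2 in WT, below background, and 249 and 197 in OsBIERF3-OE, at least 8.67-fold higher (limma adjusted p = 0.000478). It was the 1 gene of the gibberellin lists that rose, beside the rise in markers of dividing cells given above. GAMYB (LOC4327362), the MYB factor that mediates gibberellin responses in the aleurone and anther, read 196 and 210 in WT and 179.6 and 180.1 in OsBIERF3-OE, and its log2 change of -0.17 did not pass (adjusted p = 0.366). WRKY51 (LOC4335388), a repressor of gibberellin responses in aleurone, read 163 and 136 in WT and 107 and 95.9 in OsBIERF3-OE. Its groups were apart, but its log2 change of -0.56 did not pass (limma adjusted p = 0.0605). Of the alternatives it passed only with quantile normalization (limma adjusted p = 0.0467). YAB1 (LOC4342449) and the kinesin gene GDD1 (LOC4346402), both tied to gibberellin synthesis in rice, had log2 changes of 0.47 and 0.24 that did not pass (adjusted p = 0.141 and 0.297). The aleurone amylase gene AMY1A, the KNOX gene OSH1 and the expansin gene EXPA4 were not above background on any array.

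Over the members and the wider list together, 24 genes had a probe set and 20 were tested: 3 fell (GID1, KO2 and KS1), 1 rose (GRF1) and 16 did not pass. Of all genes tested 31.8% were called, and with so few genes these counts do not set the lists apart from the array as a whole. The median log2 change was -0.13 against -0.04 over all genes tested. Without LOC4341343 the calls were the same 3 and 1 of 19 genes tested, with a median of -0.09.

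**Figure D3:**
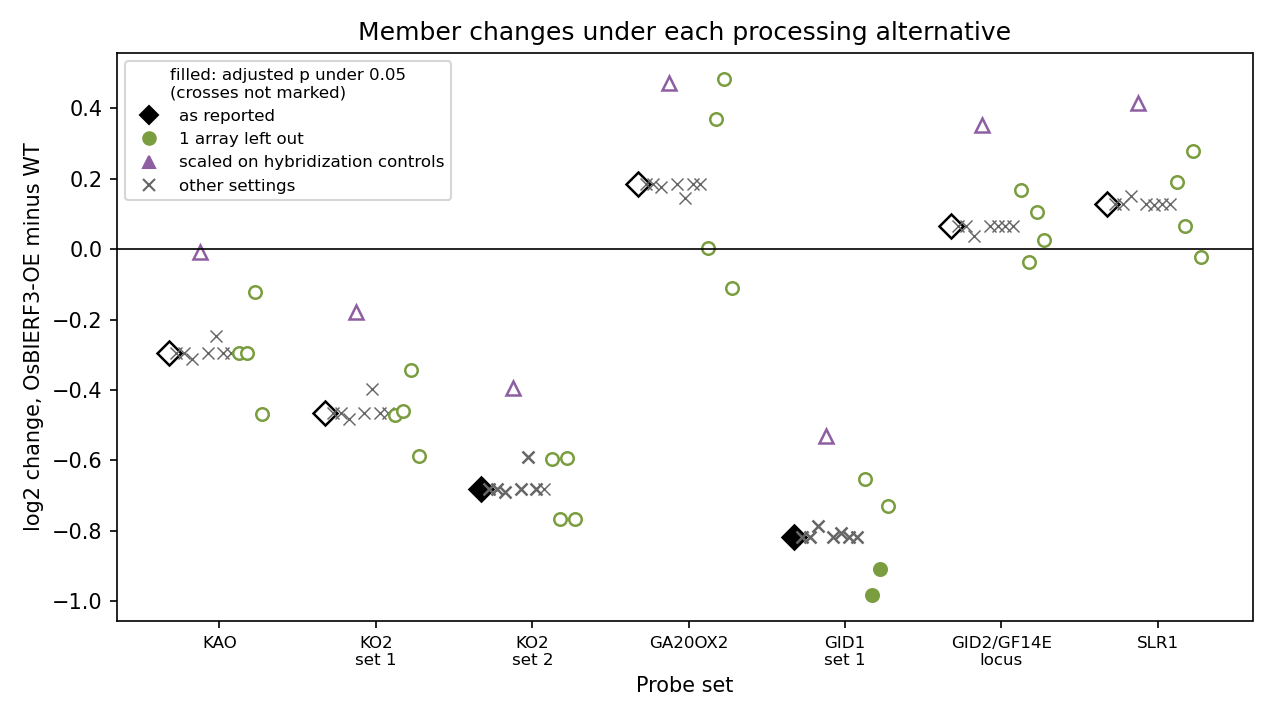
Log2 change of the 7 member probe sets tested as reported (diamonds), with 1 array left out (circles), with arrays scaled on hybridization controls (triangles) and in the other settings (crosses); filled diamonds, circles and triangles passed an adjusted p of 0.05. GID1 set 1 stays between -0.98 and -0.53 and KO2 set 2 between -0.77 and -0.39, while GA20OX2, the GID2/GF14E locus and SLR1 fall on both sides of 0.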

How the data were processed

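The deposited table gives, for each array, a linear signal intensity of every probe set. Per the submitters' processing notes MAS5 was used, in a version and role not stated there; further steps are not given in the sources used here. The sorted log2 values of each array lay within 0.0803 of their mean over arrays, so the arrays were near one distribution when deposited. Quantile normalization as an alternative could therefore change little and is a weak check. Exact ties between arrays also occur, such as KAO at 96.05 on both WT arrays, so its WT spread of 0 need not reflect close agreement of the RNA. Groups and replicates came from the sample titles, which call the replicates biological. Whether they came from separate plants is not stated, so the spread behind each p-value may be partly technical. Signals (lower limit 1) were put on the log2 scale. After removal of 123 control probe sets, the brightest 60% by mean over all 4 arrays were fitted by genotype with limma 3.58.1 in R 4.3.3 (lmFit, eBayes with trend=TRUE; 2 residual and 5.28 total degrees of freedom), with Benjamini-Hochberg adjustment at 0.05. Intervals are 95% from the same fit, and a fold is 2 to the log2 change. Where neither array of a group was above the background level, a lower bound ("at least") is given: each dim value is first raised to that array's background level, then mean log2 signals are compared. Names come from the platform table and RefSeq's genes (assembly GCF_034140825.1) (Python 3.11.15, pandas 2.3.3); 22436 probe sets had 1 gene, 95 several and 34727 none listed. Coordinates served only to find genes that overlap a member, and sequences were not used here. One match of the name CPS, to a gene also named CARB, was dropped as no gibberellin gene. Every member probe set is named whatever its value, and each tested gene of the wider list is named. Members and lists were chosen with earlier results of these data known. The script was tested on simulated data with planted changes larger than those of the members, so that test does not show how changes of the members' size are called. Alternatives were the filter, the scaling, the lower limit, the variance model, a replicate block and leaving out each array.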

Additional observations from a re-analysis of the deposited data

How the results depend on the processing

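Of the 84 alternative values of the 7 member probe sets, 72 kept direction and side of the threshold, 9 lost the call and 3 reversed; the cause was not tested. The filters, the variance model and the replicate block refit the same log2 values, so the direction could not change there. Raising signals to background changed no tested member value either, as all were above it. These alternatives test only the call. All 9 lost calls were of GID1 set 1 and KO2 set 2, and the other 5 sets tested had no call to lose. The 3 reversals were of changes that had not passed: with 1 array left out, the GID2 locus ran from -0.0363 (without WT replicate 2) to 0.168, SLR1 from -0.0225 to 0.279 and GA20OX2 from -0.111 to 0.483 (both lowest without OsBIERF3-OE replicate 2). The member probe sets called lower, 2 as reported, numbered 0 with hybridization control scaling, 1 with a replicate block and 0 to 1 with 1 array left out (0 without WT replicate 1 or OsBIERF3-OE replicate 2), and 0 were called higher in any of these. Of the pathway genes, 3 lower as reported, 5 were lower with quantile normalization, 5 with signals raised to background, 0 with hybridization control scaling and 0 to 3 with 1 array left out; 2 were higher with hybridization control scaling against 1 as reported. That scaling also moved the share of calls that were higher from 51.3% to 82.7%. Of all probe sets, 8331 passed as reported, 4540 with the replicate block, 3253 to 5988 with 1 array left out and 1 by an unmoderated two-sample test (8811 at an unadjusted p under 0.05). The block ended the calls of KO2 (adjusted p = 0.0834) and KS1 (0.082), kept that of GID1 (0.0397) and made one of GA20OX3 (0.0234). Same-numbered arrays share only a number (r of deviations -0.18); a crossed pairing, chosen after seeing the data, gave 12339 calls. With 2 arrays per genotype, even log2 changes well above the median standard error of 0.152 could fail to pass. Those of the dimmer KO2 set (-0.47) and of WRKY51 (-0.56) did not pass as reported, so a change that did not pass is not shown to be absent.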
